A study of Mus musculus with 6 samples.

Results

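The genes described are 43 DNA damage repair and checkpoint genes, chosen by name for their textbook roles, with earlier results of these data known. All 43 were among the 24972 gene symbols of the RNA-Seq table, and all 43 were among the 14456 genes tested. They comprised 15 genes of homologous recombination, 9 of the Fanconi anemia pathway, 6 of break sensing and chromatin marking, 5 checkpoint kinases and their activator, 5 of nonhomologous end joining, 2 of single-strand break repair and 1 of mismatch repair. Each gene was counted in 1 branch only, also where it has roles in more than 1, so counts per branch depend on this assignment.

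The RNA-Seq compared isolated lung endothelial cells (iLECs) of mouse pups with and without endothelial deletion of *Atp6ap2*, an accessory subunit of the vacuolar proton pump also called the prorenin receptor (PRR). Both groups, of 3 samples each, were C57BL/6 by the labels (the study's methods describe lines kept on a mixed CD1 and C57BL/6 background), carried the floxed *Atp6ap2* allele (labelled fl/Y in all 6 samples), received tamoxifen at 100 µg on postnatal days 1, 2 and 3, and were collected on postnatal day 7. Controls had no Cre recombinase. *Atp6ap2* iECKO mice also carried *Cdh5-CreERT2*, a Cre active only after tamoxifen and driven by the promoter of an endothelial gene, so deletion was directed to endothelial cells. The iLECs were captured from digested lung with beads coated with an antibody to CD31, which enriches endothelial cells and does not purify them to 1 cell type. The study reported a purity check by immunoblot. VE-cadherin was seen only in iLECs, and alpha smooth muscle actin and desmin were seen in the fraction of other cells. The study describes the samples of each genotype as biological replicates, while the labels do not tie a sample to an animal or a preparation, so *P* values measure the spread between these samples.

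The values were normalized counts, that is, estimated counts already scaled between libraries by the authors, and their totals were between 26243878 and 28725800 per library. Read numbers are not given with them and were not estimated here. The most frequent low value gave a relative depth of 1.00 to 1.04 for the controls and of 1.25 to 1.55 for *Atp6ap2* iECKO, so every *Atp6ap2* iECKO library was the deeper. Its part in the results was not tested. *Atp6ap2* had normalized counts of 7490, 5815 and 5681 in controls and of 4220, 2336 and 1982 in *Atp6ap2* iECKO iLECs, with a log2 fold change of -1.22 (SE 0.26, adjusted *P* = 0.0306). *Xist*, the RNA that coats the silenced X chromosome of female cells, went against the fl/Y labels. Control replicates 1 and 2 (37704 and 44402) and *Atp6ap2* iECKO replicates 1 and 3 (39442 and 47487) had high normalized counts of it, but control replicate 3 had 31.7 and *Atp6ap2* iECKO replicate 2 had 19.3. Both genotypes thus held 2 libraries with high *Xist* and 1 with low *Xist*.

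Cells answer broken or stalled DNA in stages. The MRE11 complex and the kinases ATM and ATR sense the lesion, marked histone H2AX spreads the signal along chromatin, and the effector kinases CHK1 and CHK2 halt the cell cycle. Breaks are then rejoined end to end, at any time of the cycle, or copied from the sister chromatid by homologous recombination, which operates once DNA has been replicated. Crosslinks are handled by the Fanconi anemia proteins at replication forks. Many recombination and Fanconi genes are known to be transcribed most in cycling cells, whereas the end joining genes are expressed through the whole cycle. The endothelium of the newborn lung is still dividing.

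Of the 43 members, 11 rose in *Atp6ap2* iECKO iLECs at an adjusted *P* below 0.05, and 0 fell. The 11 were *Topbp1*, *Xrcc2*, *Parp1*, *Fancd2*, *Fanca*, *Atm*, *Brip1*, *Bard1*, *Exo1*, *Fanci* and *Brca2*. This was 25.6% of the members, where 3.28% of all genes tested were called higher and 4.97% lower. Without adjustment, 24 members were higher and 0 lower at a *P* below 0.05, against 11.6% and 12.3% of all genes. The 3 libraries of each genotype did not overlap for 25 members, all higher in *Atp6ap2* iECKO, against 14.7% of genes not overlapping and higher and 15.0% not overlapping and lower. A log2 fold change above 0 was found for 40 members, and for 50.7% of all genes. The members had a median log2 fold change of 0.58, against 0.0049 for all genes. An adjusted *P* between 0.05 and 0.1 was found for 7 further members, namely *Brca1*, *Rad54l*, *Xrcc6*, *Blm*, *Palb2*, *Chek2* and *H2afx*. *Fancc*, *Xrcc4* and *Trp53bp1* had log2 fold changes of -0.39, -0.10 and -0.03, and none of these passed the test. All adjusted *P* values are from limma over 3 libraries per genotype, computed on log2(normalized count + 1), a scale that understates changes of low genes. An exact permutation test of single genes cannot go below *P* = 0.1 with 3 samples against 3. In the GENCODE annotation of GRCm38 the called genes of homologous recombination are *Xrcc2* at chr5:25689812-25705825 (minus strand), *Exo1* at chr1:175880581-175913489 (plus strand), *Bard1* at chr1:71027498-71103146 (minus strand) and *Brca2* at chr5:150522630-150570329 (plus strand). The called Fanconi anemia genes are *Fancd2* at chr6:113531682-113597017 (plus strand), *Fanca* at chr8:123268300-123318576 (minus strand), *Brip1* at chr11:86058138-86201193 (minus strand) and *Fanci* at chr7:79391929-79450264 (plus strand). The remaining called genes are *Topbp1* at chr9:103305215-103350428 (plus strand), *Atm* at chr9:53439149-53536740 (minus strand) and *Parp1* at chr1:180568924-180601254 (plus strand).

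**Figure D1:**
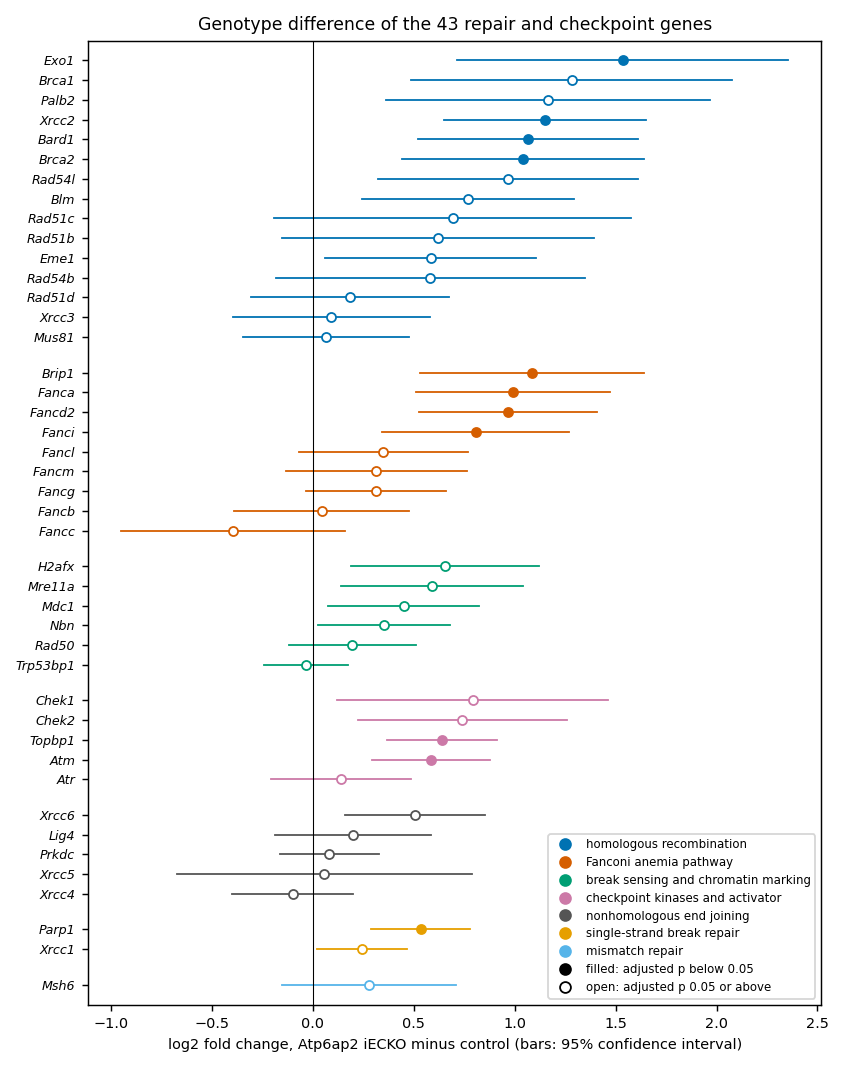
Log2 fold change of each of the 43 members (*Atp6ap2* iECKO minus control), grouped by branch, with 95% confidence intervals from limma over 3 libraries per genotype. Filled points have an adjusted *P* below 0.05, and the 11 filled points lie between 0.54 (*Parp1*) and 1.53 (*Exo1*), all above 0.

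Promoter sequence of 5 members that rose, and of *Brca1*, which did not pass the test, is shown as the 250 bases before the RefSeq start on GRCm38.p6, which can differ from the GENCODE start, written 5′ to 3′ on the strand of the gene. The first 4 are the members with the lowest adjusted *P* values that had an entry, and *Brca2* and *Brca1* were added after their values were seen. Capitals mark the searched motifs, which are described after the sequences.
Topbp1, chr9:103305077-103305326, plus strand: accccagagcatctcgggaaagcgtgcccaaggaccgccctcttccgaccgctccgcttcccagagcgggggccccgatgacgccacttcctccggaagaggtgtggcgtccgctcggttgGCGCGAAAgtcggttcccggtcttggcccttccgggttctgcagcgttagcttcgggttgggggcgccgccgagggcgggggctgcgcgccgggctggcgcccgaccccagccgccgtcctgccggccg
Parp1, chr1:180568641-180568890, plus strand: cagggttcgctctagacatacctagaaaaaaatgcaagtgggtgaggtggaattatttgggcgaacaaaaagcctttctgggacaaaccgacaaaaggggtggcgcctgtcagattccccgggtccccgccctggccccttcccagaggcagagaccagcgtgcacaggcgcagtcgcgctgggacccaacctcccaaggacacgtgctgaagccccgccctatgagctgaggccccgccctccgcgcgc
Fanca, chr8:123318577-123318826, minus strand: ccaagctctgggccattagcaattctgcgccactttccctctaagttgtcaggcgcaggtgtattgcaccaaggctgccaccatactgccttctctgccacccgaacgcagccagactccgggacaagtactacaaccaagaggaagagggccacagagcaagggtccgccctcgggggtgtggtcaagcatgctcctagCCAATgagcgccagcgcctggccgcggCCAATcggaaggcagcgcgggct
Atm, chr9:53536672-53536921, minus strand: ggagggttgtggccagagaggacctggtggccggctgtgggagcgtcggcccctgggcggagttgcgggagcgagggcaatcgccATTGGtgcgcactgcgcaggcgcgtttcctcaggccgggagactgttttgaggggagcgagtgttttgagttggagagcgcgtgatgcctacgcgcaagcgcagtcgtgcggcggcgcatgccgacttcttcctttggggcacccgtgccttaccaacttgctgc
Brca2, chr5:150522371-150522620, plus strand: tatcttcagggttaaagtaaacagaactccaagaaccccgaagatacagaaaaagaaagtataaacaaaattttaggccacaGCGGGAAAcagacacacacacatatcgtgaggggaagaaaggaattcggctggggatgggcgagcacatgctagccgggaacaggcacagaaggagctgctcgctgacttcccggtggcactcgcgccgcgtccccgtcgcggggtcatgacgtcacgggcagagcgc
Brca1, chr11:101551956-101552205, minus strand: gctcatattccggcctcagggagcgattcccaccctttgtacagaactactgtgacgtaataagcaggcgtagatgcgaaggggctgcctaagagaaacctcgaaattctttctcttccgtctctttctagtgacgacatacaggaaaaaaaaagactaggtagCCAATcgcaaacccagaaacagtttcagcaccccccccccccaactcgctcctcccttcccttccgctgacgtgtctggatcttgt

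Motifs of 3 kinds were searched on both strands of the window from 250 bases before to 50 after the start. They were E2F-type sites (TTTCCCGC, TTTCGCGC, TTTGCCGC or TTTGGCGC), CHR-type sites (TTTGAA or TTCGAA) and the CCAAT box (CCAAT), letters known from promoters of genes of the cell cycle. Counted from the start, *Topbp1* held an E2F-type match at position -129 and *Brca2* one at -168, both on the opposite strand. *Fanca* held CCAAT at -50 and -23, *Brca1* at -86, and *Atm* at -165 on the opposite strand, whereas *Parp1* held none of the 3 in the bases shown. Entries were found for 34 of the 43 members and for 11263 of the genes tested. An E2F-type match was in 9 of the 34 members (26.5%), in 3 of 8 members called higher (37.5%) and in 6 of 26 other members (23.1%), against 4.44% of the genes tested and 2.6% of all 27025 genes with an entry. CHR-type matches were in 11.8% of members and 16.5% of genes tested, and CCAAT in 55.9% and 42.4%. CCAAT was in 37.5% of the 8 called members and in 61.5% of the 26 others, a difference that was not tested. A match to these letters is a description and not a bound site.

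As the genes were assigned here, homologous recombination held the 4 largest fold changes, those of *Exo1*, *Brca1*, *Palb2* and *Xrcc2*. All 15 of its genes had a log2 fold change above 0, with a median of 0.77. Of these, 4 were called higher and 9 were higher without overlap, against 3.28% and 14.7% of all genes tested. *Exo1*, a nuclease that trims broken ends to single strands, had normalized counts of 71.1, 194 and 93.7 in controls and of 254, 357 and 353 in *Atp6ap2* iECKO, given here and throughout in the order of replicates 1 to 3. The lowest *Atp6ap2* iECKO library was above the highest control, and the log2 fold change was 1.53 (SE 0.36, adjusted *P* = 0.0396). *Xrcc2*, which acts in the strand exchange of recombination, had 61.7, 86.5 and 72.8 in controls and 154, 151 and 187 in *Atp6ap2* iECKO iLECs. Its libraries lay close together within each genotype, and it rose by 1.15 (SE 0.22, adjusted *P* = 0.0221).

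*Brca2*, a partner of PALB2 that is needed for strand exchange, had normalized counts of 298, 656 and 419 in controls and of 783, 968 and 945 in *Atp6ap2* iECKO iLECs. Control replicate 2 was the highest control and still below every *Atp6ap2* iECKO library, with a log2 fold change of 1.04 (SE 0.26, adjusted *P* = 0.0482). *Bard1*, the obligate partner of BRCA1, had 207, 342 and 196 in controls and 415, 537 and 574 in *Atp6ap2* iECKO, a rise of 1.07 on the log2 scale (SE 0.24, adjusted *P* = 0.0349). *Brca1* itself, a ubiquitin ligase that favours recombination over end joining, did not pass the test. Its normalized counts were 185, 542 and 282 in controls and 650, 873 and 721 in *Atp6ap2* iECKO, without overlap, and its log2 fold change of 1.28 was larger than that of *Bard1* but came with a larger error (SE 0.34, adjusted *P* = 0.0613). The spread among its controls, in which replicate 2 was 2.92 times replicate 1, was wide beside that of *Bard1*.

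*Palb2*, which bridges BRCA1 and BRCA2, had normalized counts of 25.8, 56.7 and 28.5 in controls and 74.0, 74.2 and 90.4 in *Atp6ap2* iECKO, with a log2 fold change of 1.16 (SE 0.35, adjusted *P* = 0.0842). *Rad54l*, a motor protein that aids strand exchange, had 70.3, 142 and 88.6 in controls and 169, 217 and 184 in *Atp6ap2* iECKO (0.97, SE 0.28, adjusted *P* = 0.0754). *Blm*, a helicase that dissolves joined chromatids, had 352, 652 and 411 in controls and 656, 847 and 840 in *Atp6ap2* iECKO (0.77, SE 0.23, adjusted *P* = 0.0817). None of these 3 overlapped between genotypes, and none passed the test. *Rad51c*, another gene of strand exchange, had 54.7, 115 and 53.8 in controls against 156, 122 and 76.5 in *Atp6ap2* iECKO. Its genotypes overlapped, and its log2 fold change of 0.69 had a SE of 0.38 (adjusted *P* = 0.323). The other 6 genes of the branch had log2 fold changes between 0.07 (*Mus81*) and 0.62 (*Rad51b*), with adjusted *P* values from 0.163 (*Eme1*) to 0.864 (*Mus81*).

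Of the 9 Fanconi anemia genes 4 rose, against 3.28% of all genes tested, with a median log2 fold change of 0.35 over the branch. By library, the branch median of the log2 ratio to the control mean overlapped between genotypes. It was 0.34 in control replicate 2 and 0.26 in *Atp6ap2* iECKO replicate 1. *Fancd2* and *Fanci*, which form the pair that is ubiquitinated at a crosslink, both rose. *Fancd2* had normalized counts of 219, 286 and 174 in controls and of 458, 436 and 411 in *Atp6ap2* iECKO, with a log2 fold change of 0.97 (SE 0.19, adjusted *P* = 0.0256). *Fanci* had 189, 321 and 270 in controls and 471, 419 and 446 in *Atp6ap2* iECKO, a rise of 0.81 (SE 0.20, adjusted *P* = 0.0480). All *Atp6ap2* iECKO libraries of both genes were above all controls. *Brip1*, a helicase that binds BRCA1, had 246, 472 and 266 in controls and 599, 735 and 679 in *Atp6ap2* iECKO (1.09, SE 0.24, adjusted *P* = 0.0346).

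The core complex that ubiquitinates this pair was represented by *Fanca*, *Fancb*, *Fancc*, *Fancg*, *Fancl* and *Fancm*, of which only *Fanca* passed the test. *Fanca* had 266, 473 and 296 in controls and 630, 688 and 681 in *Atp6ap2* iECKO, without overlap, and a log2 fold change of 0.99 (SE 0.21, adjusted *P* = 0.0299). *Fancl*, the ubiquitin ligase, had a log2 fold change of 0.35 (adjusted *P* = 0.292) and *Fancm*, the anchor on DNA, one of 0.31 (adjusted *P* = 0.380). *Fancg* was at 0.31 (adjusted *P* = 0.256) and *Fancb* at 0.04 (adjusted *P* = 0.916). *Fancc* had 329, 436 and 670 in controls and 370, 355 and 322 in *Atp6ap2* iECKO, the lowest log2 fold change of all 43 members at -0.39 (95% interval -0.95 to 0.16, adjusted *P* = 0.375). Control replicate 3 was the highest of its libraries and the others overlapped. Whether the change of *Fanca* differed from those of the other core genes was not tested.

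Among the checkpoint genes, *Topbp1* and *Atm* rose and *Atr* did not pass the test. *Topbp1*, the scaffold that activates ATR, was the member with the lowest adjusted P. It had normalized counts of 3422, 4211 and 3178 in controls and of 5103, 5965 and 5706 in *Atp6ap2* iECKO (0.64, SE 0.12, adjusted *P* = 0.0212). *Atm*, the kinase that answers double-strand breaks, had 1091, 1184 and 1002 in controls and 1375, 1804 and 1768 in *Atp6ap2* iECKO (0.59, SE 0.13, adjusted *P* = 0.0317). Both genes were higher in every *Atp6ap2* iECKO library than in any control. *Atr*, the kinase that answers stalled forks, had 858, 1070 and 886 in controls and 835, 1130 and 1157 in *Atp6ap2* iECKO. Its genotypes overlapped, and the 95% interval of its log2 fold change of 0.14 ran from -0.21 to 0.49 (SE 0.15, adjusted *P* = 0.628).

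The effector kinases did not pass the test. *Chek1*, the target of ATR, had normalized counts of 144, 347 and 207 in controls and of 372, 413 and 353 in *Atp6ap2* iECKO, with a log2 fold change of 0.79 (SE 0.29, adjusted *P* = 0.143). *Chek2*, the target of ATM, had 123, 220 and 151 in controls and 269, 278 and 257 in *Atp6ap2* iECKO (0.74, SE 0.22, adjusted *P* = 0.0870). Neither gene overlapped between genotypes. In the controls of both genes replicate 2 stood above the others, for *Chek1* close to the lowest *Atp6ap2* iECKO library.

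None of the 6 genes of break sensing and chromatin marking passed the test. *H2afx*, the histone variant that is phosphorylated around breaks, had normalized counts of 635, 1144 and 888 in controls and of 1228, 1541 and 1330 in *Atp6ap2* iECKO, without overlap, and a log2 fold change of 0.65 (SE 0.20, adjusted *P* = 0.0923). *Mre11a*, *Nbn* and *Rad50*, the complex that binds broken ends, were at log2 fold changes of 0.59, 0.35 and 0.20, with adjusted *P* values of 0.113, 0.175 and 0.437. *Mdc1*, the adaptor that reads the marked histone, had 0.45 (adjusted *P* = 0.139). *Trp53bp1*, which shields ends from trimming and favours end joining, had 1809, 1976 and 1759 in controls and 1658, 1877 and 1892 in *Atp6ap2* iECKO. Its libraries of both genotypes spanned nearly the same range, and its log2 fold change was -0.03 (SE 0.09, 95% interval -0.24 to 0.18, adjusted *P* = 0.871), and 0.0087 with library size scaling.

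Nonhomologous end joining had the lowest median log2 fold change of the branches with more than 1 gene, 0.08, and none of its 5 genes passed the test. *Prkdc*, the kinase that bridges broken ends, had normalized counts of 938, 1031 and 843 in controls and of 974, 942 and 1056 in *Atp6ap2* iECKO. Its genotypes overlapped, with a log2 fold change of 0.08 (SE 0.11, 95% interval -0.16 to 0.33, adjusted *P* = 0.690). *Xrcc6* and *Xrcc5* encode the Ku proteins that clamp broken ends. *Xrcc6* had a log2 fold change of 0.51 without overlap (adjusted *P* = 0.0817), and *Xrcc5* of 0.06 (adjusted *P* = 0.936). *Lig4*, the ligase, and *Xrcc4*, its partner, had 0.20 and -0.10 (adjusted *P* = 0.528 and 0.701).

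In single-strand break repair, *Parp1*, the enzyme that marks nicks with poly(ADP-ribose), had normalized counts of 1557, 1793 and 1463 in controls and of 2140, 2283 and 2545 in *Atp6ap2* iECKO. All 3 *Atp6ap2* iECKO libraries were above all controls, and *Parp1* rose by 0.54 on the log2 scale (SE 0.11, adjusted *P* = 0.0256). *Xrcc1*, the scaffold that PARP1 recruits, had a log2 fold change of 0.24 without overlap (adjusted *P* = 0.174). *Msh6*, which recognizes mismatched bases, had 0.28 (adjusted *P* = 0.420).

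**Figure D2:**
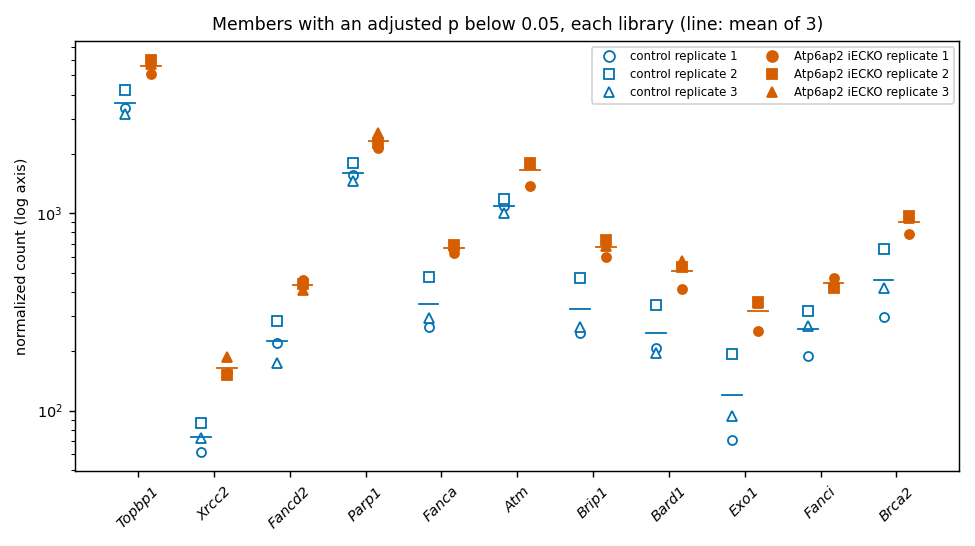
Normalized counts (log axis) of the 11 members with an adjusted *P* below 0.05 in each of the 3 control libraries (open blue) and 3 *Atp6ap2* iECKO libraries (filled orange), with lines at the group means. For every gene the filled points lie above the open ones, and control replicate 2 is the highest of the controls.

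Among control libraries, replicate 2 was the highest for 35 of the 43 members (81.4%), against 32.9% of all genes tested, and for all 11 of the called members. Replicate 1 was the lowest control for 26 members. Every *Atp6ap2* iECKO library was above control replicate 2 for 28 members, although 3 of these had another control that overlapped. Among *Atp6ap2* iECKO libraries, replicate 1 was the lowest for 28 members. Apart from the count of control replicate 2 as the highest control, no share over all genes was counted here. Those other counts are therefore description only.

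Levels of different genes were compared only per kilobase of annotated exon. *H2afx* was the highest member in both genotypes, at 642 normalized counts per kilobase in controls and 987 in *Atp6ap2* iECKO, followed by *Topbp1* at 321 and 498 and *Parp1* at 303 and 439. *Palb2* was the lowest, at 5.04 and 10.8. *Brca2* was at 33.5 and 65.9 per kilobase and *Atm* at 106 and 160. *Atr* was at 39.7 and 44.0 and *Brca1* at 39.4 and 87.7, or ranks 31 and 33 among the 43 members in controls and 34 and 19 in *Atp6ap2* iECKO. These ranks depend on the annotation, since the length joins every annotated exon of a gene. It was 23629 bases for *Atr*, 10338 for *Atm* and 8533 for *Brca1*. Before this division the control means were 938, 1093 and 336, in the same order.

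**Figure D3:**
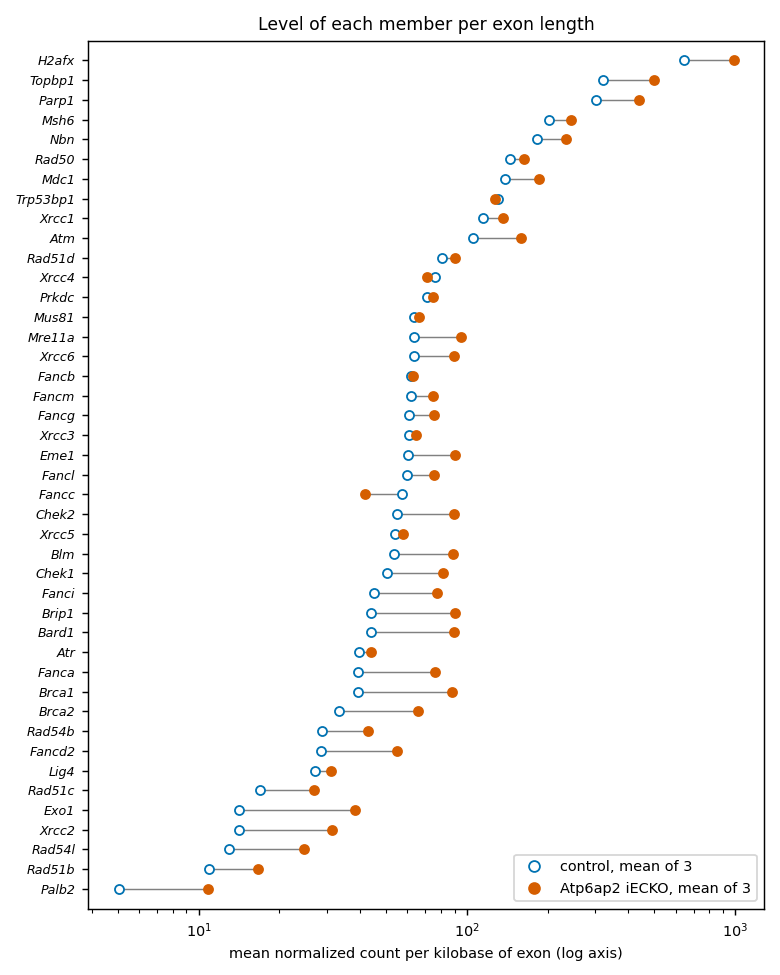
Mean normalized count per kilobase of exon (log axis) of each member in controls (open blue) and *Atp6ap2* iECKO (filled orange), n = 3 libraries each, ordered by the control level. *H2afx* is at the top with 642 and 987 and *Palb2* at the bottom with 5.04 and 10.8. Among the 43 pairs, *Fancc*, *Xrcc4* and *Trp53bp1* have the orange point to the left.

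Pairs of members with opposed or parallel roles were also set against each other within each library, which cancels the scaling. Both pairs were chosen after their values had been seen. Their ratios and permutation *P* values therefore restate the changes of the single genes and add no separate test. The ratio of *Brca1* to *Trp53bp1* was 0.102, 0.274 and 0.160 in controls and 0.392, 0.465 and 0.381 in *Atp6ap2* iECKO iLECs, with means of 0.179 ± 0.0874 and 0.413 ± 0.0456 (SD, n = 3, two-sided exact permutation *P* = 0.1, which is the smallest possible). The ratio of *Atm* to *Atr* was 1.27, 1.11 and 1.13 in controls and 1.65, 1.60 and 1.53 in *Atp6ap2* iECKO (exact permutation *P* = 0.1). Neither ratio overlapped between genotypes. The ratio of *Brca1* to *Mki67*, a marker of cycling cells, was 0.0352, 0.0502 and 0.0553 in controls and 0.0519, 0.0550 and 0.0573 in *Atp6ap2* iECKO, and these overlapped (exact permutation *P* = 0.3).

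Genes of the cell cycle moved with the members. Of 26 DNA replication genes 17 rose and 0 fell, with a median log2 fold change of 1.04, and of 26 mitosis genes 11 rose and 0 fell, with a median of 0.90. Among all genes tested, 3.28% were called higher and 4.97% lower. *Mki67* had a log2 fold change of 1.04 (adjusted *P* = 0.0565), *Top2a* of 1.00 (adjusted *P* = 0.0489) and *Mcm2* of 1.12 (adjusted *P* = 0.0239). The summed normalized counts of the replication genes were 18468, 31607 and 21794 in controls and 40545, 46936 and 44620 in *Atp6ap2* iECKO, so control replicate 2 was the highest control here too. Divided by this sum in each library, 1 member (*Exo1*) was higher without overlap, 22 were lower without overlap and 20 overlapped, against 0.380% of genes higher and 76.0% lower. Members called higher stand in both of the last groups, since *Topbp1* was among the 22 and the other called members apart from *Exo1* overlapped. This division was chosen after the values had been seen. More cells in cycle and more RNA of these genes per cell cannot be told apart in bulk RNA.

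**Figure D4:**
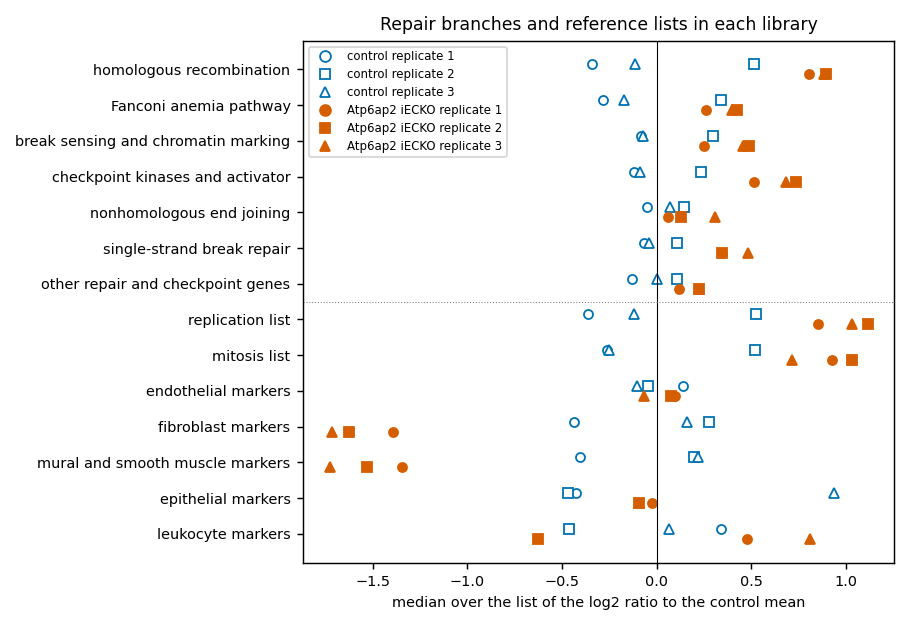
For each list of genes and each library, the median log2 ratio to the control mean (x axis, 0 is the control mean), with controls as open blue and *Atp6ap2* iECKO libraries as filled orange points and the replicate number as the shape. Control replicate 2 is the highest control in every repair branch shown, the other repair and checkpoint genes, and the replication and mitosis lists. It lies above *Atp6ap2* iECKO replicate 1 for the Fanconi anemia (0.34 against 0.26) and break sensing (0.30 against 0.25) branches. For end joining it lies above *Atp6ap2* iECKO replicates 1 and 2 (0.14 against 0.06 and 0.13). The fibroblast and mural lists lie far below 0 in all 3 *Atp6ap2* iECKO libraries.

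Of 128 other genes of the same pathways, listed by role, 126 were tested, 15 rose and 0 fell, with a median log2 fold change of 0.17. This stands beside 3.28% called higher and 4.97% called lower among all genes tested. The rises were in 4 branches. In homologous recombination 8 of 29 rose, led by *Dna2*, a nuclease and helicase of end trimming (1.31, adjusted *P* = 0.0104), and *Rtel1*, a helicase that unwinds displaced loops (0.71, adjusted *P* = 0.0161). In the checkpoint 2 of 18 rose, *Clspn*, the adaptor between ATR and CHK1 (1.22, adjusted *P* = 0.0326), and *Trp53*, the transcription factor p53 (0.40, adjusted *P* = 0.0411). In base excision and single-strand break repair 4 of 18 rose, namely the flap nuclease *Fen1* (0.90, adjusted *P* = 0.0167), the ligase *Lig1* (1.03, adjusted *P* = 0.0220), and the glycosylases *Neil3* (0.95, adjusted *P* = 0.0346) and *Ung* (1.37, adjusted *P* = 0.0378). In the Fanconi anemia pathway 1 of 13 rose, *Usp1*, which removes ubiquitin from FANCD2 (0.66, adjusted *P* = 0.0303). The median log2 fold changes of these 4 lists were 0.31, 0.36, 0.15 and 0.07, in the order given.

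In the other 5 lists none of the genes passed the test, of 12 in break sensing, 7 in end joining, 6 in mismatch repair, 14 in nucleotide excision repair and 9 in translesion synthesis. Their median log2 fold changes were 0.20, 0.06, 0.27, -0.01 and 0.20. Of 25 target genes of p53, 5 rose (*Eda2r*, *Aen*, *Gdf15*, *Zmat3* and *Ccng1*) and 1, *Btg2*, fell, with a median of 0.15 over the list. Among all genes tested, 3.28% were called higher and 4.97% lower. The list was mixed, with 15 log2 fold changes above 0 and 10 below. Without overlap, 10 were higher and 4 lower, against 14.7% and 15.0% of all genes. *Eda2r*, a receptor of the tumor necrosis factor family, had normalized counts of 97.5, 47.3 and 40.1 in controls and of 264, 442 and 428 in *Atp6ap2* iECKO (2.67, SE 0.36, adjusted *P* = 0.0103). *Gdf15*, a secreted stress factor, rose by 1.26 (SE 0.21, adjusted *P* = 0.0146).

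Markers of other lung cells also differed between genotypes. Of the 20 endothelial markers 0 rose and 1 (*Tek*) fell, with a median log2 fold change of 0.02, and their summed normalized counts ran from 421319 to 550618 in controls and from 426238 to 508906 in *Atp6ap2* iECKO. Of 14 tested fibroblast markers 12 fell (median -1.58), with sums of 81828 to 128924 in controls and of 28267 to 40593 in *Atp6ap2* iECKO. Of 14 mural and smooth muscle markers 9 fell (median -1.53), with sums of 25958 to 37699 and of 10231 to 13377. Of 14 epithelial markers 1 (*Scgb1a1*) rose, while 11 had a log2 fold change below 0 (median -0.11). Their sums were 31655 to 80531 in controls and 38815 to 46021 in *Atp6ap2* iECKO. Of 14 tested leukocyte markers 0 passed (median 0.16), with sums of 9420 to 16807 and of 8004 to 22237. No marker was at 0 in all libraries. The part of these cell types, and of the cell cycle genes, in the rise of the members was not tested.

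Members were also compared within each level of *Xist*. Between the 2 libraries with low *Xist*, control replicate 3 and *Atp6ap2* iECKO replicate 2, 40 of 43 members were higher in *Atp6ap2* iECKO with a median log2 difference of 0.64, against 49.3% of all genes higher. Among the 4 libraries with high *Xist*, 39 of 43 were higher with a median of 0.46, against 50.7% of all genes. All 11 called members were higher in both, which had to be so, since none of them overlapped between genotypes. The low *Xist* pair has 1 library per genotype and no test, and in the high *Xist* libraries 0 members, and 0 of 14094 genes, passed the test.

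The number of members called depended on single libraries. It was 20 without control replicate 2, 5 without *Atp6ap2* iECKO replicate 1 and 2 without control replicate 1, and 0 without control replicate 3. Of all genes tested, 3.22%, 2.54%, 1.92% and 0.455% were called higher in those fits, in the order given, against 3.28% in the main fit. The number of members called was also 0 when replicate 2 or replicate 3 of *Atp6ap2* iECKO was left out. In these fits 0.223% and 0.196% of all genes were called higher. Over the same 6 fits the log2 fold changes of the 11 called members ran from 0.47 (*Parp1*) to 1.95 (*Exo1*). They could not fall below 0, since no called member overlapped between genotypes, so their direction is no separate support.

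**Figure D5:**
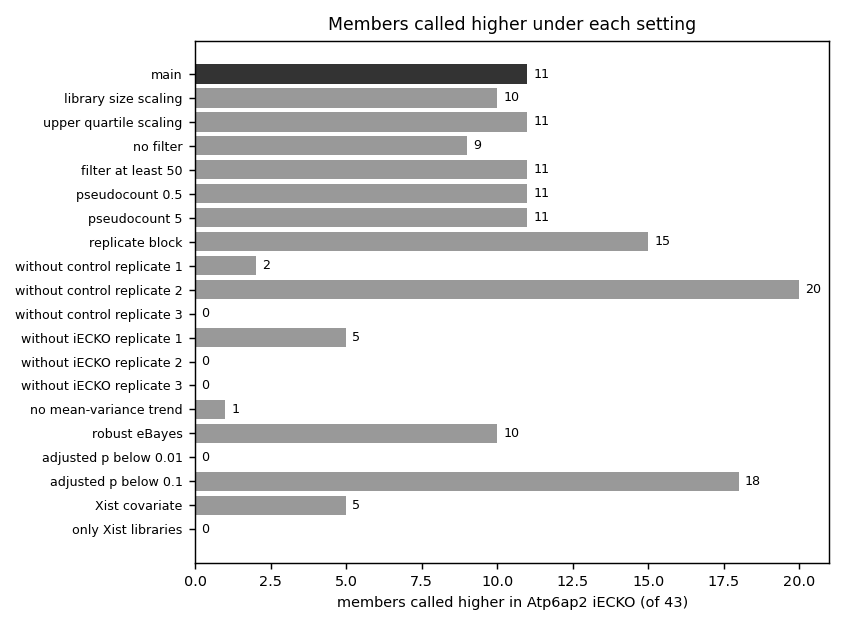
Number of the 43 members called higher in *Atp6ap2* iECKO (bars from 0) in the main fit (dark) and under each of 19 alternatives (grey). The count is 11 in the main fit, 9 to 11 under other scalings, filters and pseudocounts, and 0 to 20 when a library is left out. Of all genes tested, 3.28% were called higher in the main fit and 0.196% to 3.22% when a library was left out.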

How the data were processed

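RNA-Seq of 3 control and 3 *Atp6ap2* iECKO samples was analysed from 1 deposited table. The authors prepared TruSeq mRNA libraries, aligned the reads to mm10 in BaseSpace and obtained gene values from its differential expression tool. The deposited values are a normalized signal (estimated counts divided by size factors), although the labels call them raw. They are not whole, and the median ratio to the geometric mean was 1.0036 in all 6 libraries, so no count model was used.

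Genes reaching 10 in 3 or more libraries entered the test, run on log2(value + 1) with limma 3.58.1 in R 4.3.3 (mean-variance trend, no covariate), with Benjamini-Hochberg adjustment over 14456 genes, a threshold of 0.05 and no fold minimum. For single values an exact permutation test was used. Precision is given by the spread over libraries, since read numbers were not given.

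The members and lists were chosen with earlier results of these data known. Named in full were *Atp6ap2*, all members past the threshold, *Brca1*, *Brca2*, *Atm*, *Atr*, *Chek1*, *Chek2*, *Trp53bp1*, *Parp1*, *Prkdc* and *H2afx* whatever their result, and the 4 other members with the largest log2 fold change. From other lists at most 3 genes with the lowest adjusted P were to be named. A gene that this rule names is not reported here. *Neil3*, *Ung*, *Zmat3*, *Ccng1*, *Btg2*, *Tek* and *Scgb1a1* were named after their values were seen. Exon lengths came from GENCODE M21 (43 of 43 symbols matched). Alternatives were other scalings, filters, pseudocounts, variance models and thresholds, the replicate number as a block, each library left out, and *Xist* as a covariate or a restriction.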

Additional observations from a re-analysis of the deposited data

How the results depend on the processing

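Members called higher numbered 11, and 0 were called lower in any of the 19 alternatives. Other scalings, filters and pseudocounts and the robust fit gave 9 to 11. The count was 1 without a mean-variance trend, 0 at an adjusted *P* below 0.01, 18 at an adjusted *P* below 0.1, 5 with *Xist* as a covariate and 0 in the libraries with high *Xist* alone, and it ranged from 0 to 20 with each library left out. Of all genes, 0.477%, 0.0553%, 6.28%, 1.72% and 0% were called higher in those settings, in that order. The share was 0.196% to 3.22% with each library left out, against 3.28% in the main fit. With the replicate number as a block the count of members was 15, which included the 11, and 4.63% of all genes were called higher. Deviations of same-numbered libraries correlated by 0.252, 0.114 and 0.0782, so not every pair was over 0.1, and control replicate 3 correlated best with *Atp6ap2* iECKO replicate 2 (0.1), so the numbers are not taken to pair the samples. *Atp6ap2* was lower in every alternative, though not past an adjusted P of 0.01 (-1.22), nor past 0.05 without a trend (-1.22) or with high *Xist* libraries alone (-1.19), and ran from -1.54 to -0.999 with each library left out, where 1 of 6 fits passed. *Trp53bp1* reversed to 0.0087 with library size scaling and ran from -0.066 to 0.030 with each library left out. Causes of these changes were not tested. The fits that left libraries out also had fewer samples. Differences in low genes such as *Palb2* are limited by the read depth, of which only relative values were estimated.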
